A study of Homo sapiens with 12 samples.

Results

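Nuclear receptors are transcription factors that bind DNA as monomers, homodimers or heterodimers and change the activity of their target genes when a small lipophilic ligand enters their ligand-binding domain. The set described here is the nuclear receptor family without the glucocorticoid receptor. Its members were chosen by name, not by their measured values: 44 receptors were listed, and the 38 that had a row of a single gene symbol in the expression table were analysed, among 18417 genes in all. RARA, NR1H2, NR1H4, NR1I2, HNF4A and NR2F2 had no such row and were not analysed here. For a receptor with several rows, the row with the highest mean was used.

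The arrays come from HEL and UKE1, 2 established human leukemia lines. All groups share the JAK2V617F mutation, a change that keeps the JAK2 kinase on. Cells were grown with or without 250 nM ITF2357 for 6 h. ITF2357, also called givinostat, inhibits histone deacetylases. There were thus 4 groups of 3 arrays: untreated HEL, ITF2357-treated HEL, untreated UKE1 and ITF2357-treated UKE1. Nothing in the labels says that the 3 arrays of a group came from separate cultures beyond the word independent, so a p-value here reflects only how much these samples vary, which may be technical. Fetal calf serum was in both media, but per the labels' protocols only that of UKE1 was supplemented with horse serum, hydrocortisone and HEPES, so line and medium cannot be told apart in any comparison of the lines.

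Histone deacetylases matter to this family as background. Several receptors without ligand hold a corepressor complex of NCOR proteins, TBL1X-type adaptors and HDAC3 on their target genes, and ligand exchanges it for coactivators of the NCOA family and the acetyltransferases CREBBP and EP300. Retinoid X receptors (RXRs) are the common partner with which retinoic acid, vitamin D, thyroid hormone, liver X (LXR) and peroxisome proliferator-activated (PPAR) receptors bind DNA. In blood cells, retinoic acid and vitamin D receptors are known for their part in myeloid differentiation, and NR4A receptors for rapid induction by many stimuli.

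Values are log2 expression levels as deposited, and a change is a difference of 2 group means with the standard error of a linear model fitted to all genes (limma, 3 arrays a group). A receptor is said to have risen, fallen or differed where its Benjamini-Hochberg adjusted p over the 18417 genes was below 0.05, which is also what "called" means. Without detection flags in the table, absence of a receptor cannot be stated. In 16 of the 38 receptors all 4 group means lay below 6.45, the median of the whole table, and levels of different receptors are not compared, since each row has its own probes.

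In HEL 17 of 38 receptors (44.7%) were called, against 42.4% of all genes. Of these 11 rose and 6 fell, where 22.6% of all genes rose and 19.9% fell. In UKE1 14 (36.8%) were called, against 44.3% of all genes, and 8 rose and 6 fell, where 22.0% of all genes rose and 22.3% fell. The responses of the lines differed for 13 of 38 receptors (34.2%), against 23.9% of all genes. In 7 of them the UKE1 change was the more positive (10.1% of all genes) and in 6 the more negative (13.8%). Median centring turned the split over all genes from 42.2% to 30.6% more positive, and that of the receptors to 6 and 7. A called change of at least 0.5 was seen for 9 receptors in HEL (18.2% of all genes), 9 in UKE1 (19.1%) and 10 for the difference (11.5%). The median log2 change of the 38 was 0.02 in HEL and 0.04 in UKE1, against -0.01 and 0.01 over all genes. There was no overlap of treated with untreated arrays for 18 receptors in HEL and 16 in UKE1, where 49.0% and 53.9% of all genes had no overlap. Every called receptor was among them in both lines.

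Within the family, single receptors moved in each direction. PPARD and PPARA, sensors of fatty acids, and NR4A1 and NR4A2 rose in both lines. RXRB, NR1D1 and NR5A1 fell in both. RXRA and the mineralocorticoid receptor NR3C2 went opposite ways in the 2 lines. A further 6 receptors rose and 2 fell in HEL alone by the call, 3 rose and 2 fell in UKE1 alone by the call, and 16 were called in neither. Over all genes, 14.0% were higher in each line and 12.9% lower in each line, 1.49% went up in HEL but down in UKE1, and 0.603% down in HEL but up in UKE1. By the call, 7.05% of all genes rose and 6.31% fell in HEL alone, 7.34% rose and 7.90% fell in UKE1 alone, and 42.3% were called in neither.

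**Figure D1:**
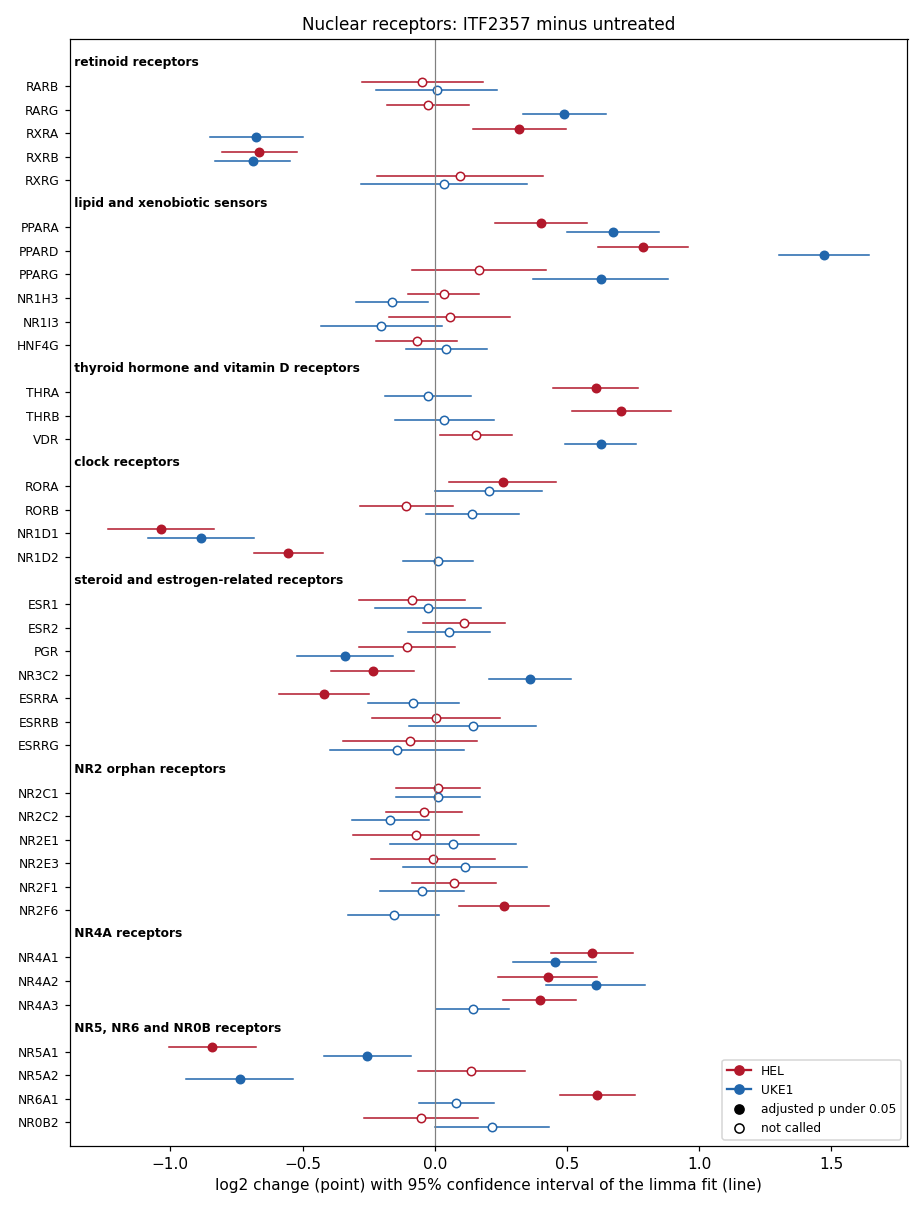
Log2 change with ITF2357 (x axis) of each of the 38 receptors, grouped by class (y axis), in HEL (red) and UKE1 (blue). Points are changes, lines are 95% confidence intervals of the fit, and filled points are called. PPARD in UKE1 lies farthest to the right (1.47) and NR1D1 in HEL farthest to the left (-1.03).

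The stretches of genome before 5 of these receptors are printed because their genes carry the changes described below. They belong to PPARD, which rose most, NR1D1, which fell most, and NR4A3, whose rise was called in HEL only. The rest belong to the chromosomal neighbours NR5A1 and NR6A1, which went opposite ways in HEL. Each is the 250 bases before the gene's RefSeq start in build GRCh38.p14, written 5′ to 3′ on the gene's own strand. Capitals mark matches, on either strand, to the letters searched for. TGACGTCA is the cyclic AMP response element, and its shorter part, which it overlaps, was searched for as TGACG. Many nuclear receptors bind the hexamer AGGTCA. Some bind it as monomers in the longer forms with extra bases in front, AAAGGTCA for the NR4A type. The form of the clock receptors was searched for as TAGGTCA, and both forms overlap the hexamer. The letters CACGTG form an E-box. The site of GATA factors was searched for as AGATAA.
PPARD, chr6:35342308-35342557, plus strand: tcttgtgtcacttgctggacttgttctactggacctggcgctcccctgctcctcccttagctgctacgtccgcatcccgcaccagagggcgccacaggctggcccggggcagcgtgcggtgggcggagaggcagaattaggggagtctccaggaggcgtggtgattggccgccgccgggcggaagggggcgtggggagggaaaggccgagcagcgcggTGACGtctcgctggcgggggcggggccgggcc
NR1D1, chr17:40100590-40100839, minus strand: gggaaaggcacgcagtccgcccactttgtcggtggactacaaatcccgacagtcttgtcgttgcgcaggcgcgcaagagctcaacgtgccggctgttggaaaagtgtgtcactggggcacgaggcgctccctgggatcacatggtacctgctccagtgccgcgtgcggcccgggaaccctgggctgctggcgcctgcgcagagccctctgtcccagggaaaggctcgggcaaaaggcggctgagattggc
NR4A3, chr9:99821635-99821884, plus strand: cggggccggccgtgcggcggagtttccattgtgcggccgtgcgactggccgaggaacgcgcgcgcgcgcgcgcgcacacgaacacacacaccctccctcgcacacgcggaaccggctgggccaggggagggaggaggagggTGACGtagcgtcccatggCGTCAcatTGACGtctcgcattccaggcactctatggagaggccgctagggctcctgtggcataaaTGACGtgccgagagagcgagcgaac
NR5A1, chr9:124507400-124507649, minus strand: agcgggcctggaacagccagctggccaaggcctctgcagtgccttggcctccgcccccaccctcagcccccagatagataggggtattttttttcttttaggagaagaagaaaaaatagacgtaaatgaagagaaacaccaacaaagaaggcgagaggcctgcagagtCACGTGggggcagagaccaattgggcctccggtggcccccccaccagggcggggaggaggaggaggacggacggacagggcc
NR6A1, chr9:124771312-124771561, minus strand: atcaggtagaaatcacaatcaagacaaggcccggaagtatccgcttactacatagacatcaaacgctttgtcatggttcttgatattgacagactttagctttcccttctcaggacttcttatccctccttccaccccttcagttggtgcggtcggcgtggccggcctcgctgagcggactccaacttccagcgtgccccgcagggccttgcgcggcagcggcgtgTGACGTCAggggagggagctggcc

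These windows differ in the letters they hold. The NR4A3 window held TGACG 4 times, the PPARD window held it 1 time, and the NR6A1 window held the whole element TGACGTCA, 24 to 17 bases before the start. The NR5A1 window held 1 E-box, and the NR1D1 window held none of the letters searched for. The windows before NR4A1, whose rise was called in both lines, are not printed and held no TGACG. Of 35116 starts in the RefSeq table, 21.2% held TGACG in the same window, 1.65% TGACGTCA and 6.34% CACGTG. The table matched 33 of the 38 receptors, with 77 starts, and NR4A2 was not matched. Of the 77 starts, 16.9% held TGACG, 2.6% TGACGTCA and 15.6% AGGTCA, against 12.1% of all starts for AGGTCA. Among the receptors TGACGTCA lay before NR6A1 and NR2E1 only, and NR2E1 was called in no comparison. A match is a stretch of letters and not a measured binding site, and its part in any change was not tested.

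Among the lipid sensors, PPARD and PPARA rose in both lines. PPARs control fatty acid use, and PPARD is the most broadly expressed of them. PPARD read 8.002, 8.17 and 8.13 on the untreated HEL arrays and 8.81, 8.81 and 9.04 on the treated ones. In UKE1 it read 6.53, 6.49 and 6.43 untreated and 7.85, 8.04 and 7.99 treated. All treated arrays lay above all untreated ones of their line. The log2 changes were 0.79 ± 0.079 (SE, adjusted p = 1.94e-06) in HEL and 1.47 ± 0.079 (adjusted p = 6.53e-09) in UKE1, a 1.73-fold and a 2.78-fold increase. The response was larger in UKE1 by 0.69 ± 0.112 (adjusted p = 0.000562).

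PPARA, which drives fatty acid oxidation in liver, rose in both lines. In HEL it went from 7.41, 7.49 and 7.39 to 7.97, 7.73 and 7.80, and in UKE1 from 7.41, 7.24 and 7.14 to 7.89, 7.997 and 7.92. Neither pair of groups overlapped. The changes of 0.40 ± 0.0807 (adjusted p = 0.00093) and 0.67 ± 0.0807 (adjusted p = 9.49e-06) differed by 0.27 with a 95% interval from 0.02 to 0.52 that is not adjusted for the number of genes, and the adjusted p of 0.107 did not pass. It passed without HEL treated array 1 or UKE1 untreated array 1 (0.0409 at the lowest).

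PPARG, the regulator of fat cell formation, rose in UKE1 only by the call. Its UKE1 arrays went from 5.10, 5.16 and 5.21 to 5.68, 5.85 and 5.82, a change of 0.63 ± 0.118 (adjusted p = 0.000535). Its HEL arrays read 4.11, 4.59 and 4.42 untreated and 4.32, 4.58 and 4.72 treated, which overlapped (0.17 ± 0.118, adjusted p = 0.294). The difference between the responses was 0.46 (adjusted p = 0.0629) and was not called. It was called in 3 of 18 other settings, with the replicate number as a block and without HEL untreated array 1 or HEL treated array 3 (adjusted p 0.0112 at the lowest). All 4 of its group means lay below the table's median.

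The other lipid and xenobiotic sensors stayed below the threshold. NR1H3, an oxysterol receptor (LXR alpha), changed by 0.03 in HEL and -0.16 in UKE1 (adjusted p = 0.0505), where its treated arrays lay below the untreated ones. That change was called in 4 of 20 other settings, 2 of which left out HEL treated array 3 or UKE1 untreated array 3 (adjusted p 0.0255 at the lowest). NR1I3, a xenobiotic sensor, and HNF4G, a liver and gut factor, had changes between -0.20 and 0.06 in the 2 lines. The NR1I3 changes in UKE1 and between the responses were called without UKE1 treated array 1 (adjusted p = 0.0134 and 0.0494).

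The retinoid X receptors split. RXRB had nearly the same values in both lines: 8.52, 8.43 and 8.48 in untreated HEL and 8.52, 8.46 and 8.44 in untreated UKE1. With ITF2357 it read 7.82, 7.79 and 7.83 in HEL and 7.89, 7.81 and 7.65 in UKE1. It thus fell by 0.66 ± 0.066 (adjusted p = 1.78e-06) and by 0.69 ± 0.066 (adjusted p = 1.16e-06). The difference between these changes was -0.03, with a 95% interval from -0.23 to 0.18. RXRB had 3 rows, and its calls were the same with the row of the lowest mean and with the mean of the rows.

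RXRA, the partner receptor that prevails in many tissues, went opposite ways. It rose in HEL from 5.95, 5.84 and 5.79 to 6.15, 6.32 and 6.07, and fell in UKE1 from 8.24, 8.31 and 8.33 to 7.57, 7.76 and 7.54. The groups of each line did not overlap, and all UKE1 arrays stayed above all HEL arrays. The changes were 0.32 ± 0.0815 (adjusted p = 0.00549) and -0.67 ± 0.0815 (adjusted p = 1.02e-05), and they differed by -0.99 ± 0.115 (adjusted p = 3.93e-05), the largest difference between the responses in the family. RXRG, a form known from muscle and brain, changed by 0.09 and 0.03 and was not called.

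Of the retinoic acid receptors measured, RARG responded in UKE1. It read 5.79, 5.89 and 5.72 there without drug and 6.16, 6.41 and 6.30 with it, an increase of 0.49 ± 0.072 (adjusted p = 6.27e-05). In HEL, where it read 7.58, 7.57 and 7.67, the treated values of 7.59, 7.58 and 7.58 fell among the untreated ones. The responses differed by 0.52 (adjusted p = 0.00233). RARB, itself a retinoic acid target gene in many cells, read between 4.75 and 4.82 as a mean in all 4 groups and was not called.

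Both thyroid hormone receptors rose in HEL and were not called in UKE1. THRA went from 6.69, 6.76 and 6.74 to 7.40, 7.18 and 7.43 in HEL (0.61 ± 0.0748, adjusted p = 1.28e-05). In UKE1 it read 7.63, 7.59 and 7.70 without drug and 7.59, 7.71 and 7.54 with it, which overlapped. THRB went from 6.77, 6.90 and 6.74 to 7.45, 7.58 and 7.49 in HEL (0.70 ± 0.0866, adjusted p = 1.27e-05), a 1.63-fold increase. In UKE1 it lay between 4.66 and 5.00 on all 6 arrays, below the table's median. The differences between the responses were -0.63 for THRA and -0.67 for THRB (adjusted p = 0.000681 and 0.00135).

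The vitamin D receptor VDR showed the reverse order of the lines. It rose in UKE1 from 7.79, 7.71 and 7.79 to 8.35, 8.38 and 8.44 (0.63 ± 0.0624, adjusted p = 1.68e-06). In HEL it went from 8.84, 8.89 and 8.77 to 9.0004, 8.90 and 9.06. Those HEL arrays did not overlap, but the change of 0.16 had an adjusted p of 0.0607 and was not called, but it was called under 5 of 20 other settings, among them 1 that left out HEL treated array 2 (adjusted p 0.0278 at the lowest). The response was larger in UKE1 by 0.47 (adjusted p = 0.00159).

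**Figure D2:**
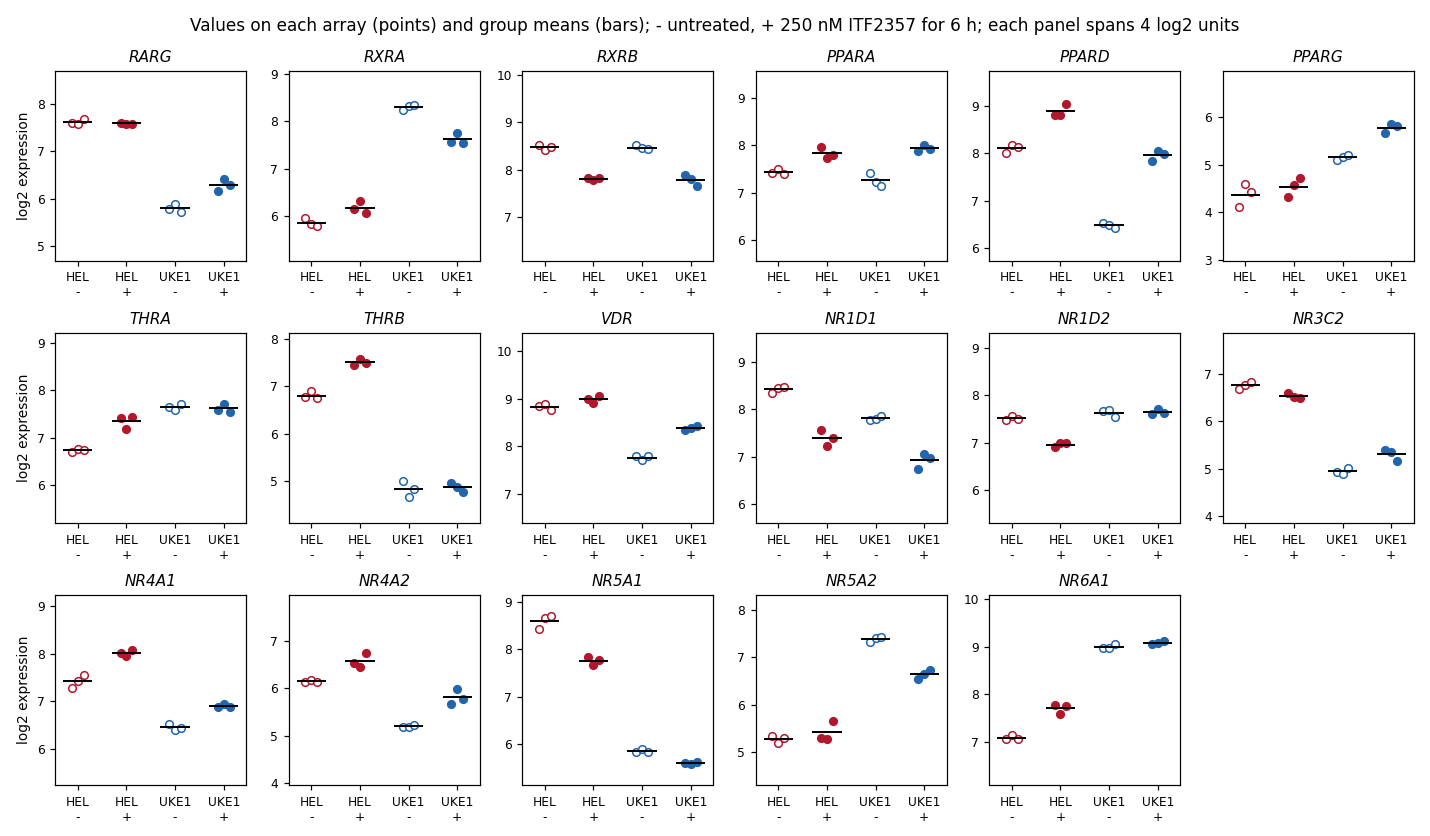
Log2 expression (y axis) on every array (points) with group means (bars) for the 17 receptors with the larger changes, untreated (open) and treated (filled), in HEL (red) and UKE1 (blue). Every panel spans 4 log2 units; RXRB starts at the same level in both lines and falls in both, while RXRA moves opposite ways.

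The clock receptors include the repressors NR1D1 and NR1D2 (REV-ERB alpha and beta), which recruit NCOR and HDAC3 to shut off BMAL1, and the activators RORA and RORB, which bind the same elements. NR1D1 fell in both lines. It read 8.35, 8.45 and 8.48 in untreated HEL and 7.56, 7.22 and 7.39 in treated HEL. In UKE1 it went from 7.78, 7.80 and 7.86 to 6.74, 7.06 and 6.97. The decreases were 2.05-fold (adjusted p = 6.89e-07) and 1.85-fold (adjusted p = 2.75e-06), and their difference of 0.15 on the log2 scale had a 95% interval from -0.13 to 0.43.

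NR1D2 fell in HEL only by the call. Its HEL arrays went from 7.49, 7.56 and 7.50 to 6.92, 6.99 and 6.99 (-0.55 ± 0.0609, adjusted p = 4.5e-06). Its UKE1 arrays read 7.67, 7.68 and 7.55 without drug and 7.61, 7.71 and 7.62 with it. The groups overlapped in UKE1, and the responses differed by 0.57 (adjusted p = 0.00034). RORA rose by 0.26 in HEL (adjusted p = 0.0405), a call lost in 7 of 19 other settings (adjusted p up to 0.151), among them the fits without HEL untreated array 1 or 3, any treated HEL array or UKE1 untreated array 1. It changed by 0.20 in UKE1 (adjusted p = 0.0979, and 0.0394 without UKE1 treated array 3), and RORB was not called in either line. All group means of RORA and RORB lay below the table's median.

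In the RefSeq annotation, THRA and NR1D1 are neighbours on chromosome 17 that overlap. NR1D1 fell and THRA rose in HEL, and whether the array's probes lie in the shared stretch is not given in the sources used here. Likewise NR1D2, THRB and RARB follow each other on chromosome 3 with no other protein-coding gene between them. In HEL NR1D2 fell, THRB rose and RARB was not called.

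The NR4A receptors, orphan receptors that are early response genes, rose in both lines, except NR4A3, which was called in HEL only. NR4A1 went from 7.28, 7.44 and 7.56 to 8.02, 7.97 and 8.08 in HEL and from 6.53, 6.401 and 6.43 to 6.89, 6.95 and 6.89 in UKE1. These were increases of 0.59 ± 0.0726 (adjusted p = 1.2e-05) and 0.45 ± 0.0726 (adjusted p = 0.000135). NR4A2 read 6.14, 6.19 and 6.13 in untreated HEL and 6.54, 6.46 and 6.74 in treated HEL. In UKE1 its values were 5.19, 5.19 and 5.22 before and 5.66, 6.00 and 5.77 after the drug. It rose by 0.43 (adjusted p = 0.00113) and 0.61 (adjusted p = 5.27e-05), and no treated array of either gene fell within the untreated range.

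NR4A3 rose by 0.40 in HEL (adjusted p = 0.000155), from a mean of 5.75 to 6.15. All 4 of its group means lay below the table's median. In UKE1 it went from 4.84 to 4.98, a change of 0.14 (adjusted p = 0.0874). Differences between the lines' responses were -0.14, 0.18 and -0.25 for NR4A1, NR4A2 and NR4A3, none of them called (adjusted p = 0.369, 0.333 and 0.0598). For NR4A3 the UKE1 change was called without UKE1 untreated array 2 (adjusted p = 0.0428). Its difference was called under quantile normalization, median centring and without UKE1 untreated array 3 (adjusted p 0.027 at the lowest). All 3 were lower in untreated UKE1 than in untreated HEL, by 0.97, 0.95 and 0.92 on the log2 scale.

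NR5A1 (steroidogenic factor 1) and NR6A1 (germ cell nuclear factor) lie next to each other on chromosome 9. In HEL, NR5A1 fell from 8.41, 8.66 and 8.70 to 7.83, 7.66 and 7.76 (-0.84 ± 0.0763, adjusted p = 7.5e-07). NR6A1, which represses pluripotency genes in early development, rose there from 7.06, 7.16 and 7.06 to 7.79, 7.58 and 7.75 (0.61 ± 0.066, adjusted p = 3.62e-06). The treated arrays lay outside the untreated range for both genes, in opposite directions.

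In UKE1 the changes of this pair were smaller, and both NR5A1 means there (5.86 untreated, 5.60 treated) lay below the table's median. NR5A1 read 5.83, 5.90 and 5.84 without drug and 5.60, 5.58 and 5.63 with it, a fall by 0.25 (adjusted p = 0.0141) that lost its call (adjusted p = 0.0503) without UKE1 untreated array 2. NR6A1 read 8.98, 8.98 and 9.06, and 9.06, 9.07 and 9.12 with the drug (0.08, adjusted p = 0.368). The responses of the lines differed by 0.59 for NR5A1 and -0.53 for NR6A1 (adjusted p = 0.0014 and 0.000956).

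NR5A2 (liver receptor homolog 1) is the relative of NR5A1. It fell in UKE1 from 7.33, 7.40 and 7.43 to 6.55, 6.66 and 6.74 (-0.74 ± 0.094, adjusted p = 1.72e-05). In HEL it read 5.35, 5.19 and 5.30, and 5.31, 5.29 and 5.66 with the drug. The HEL groups overlapped, and the responses differed by -0.87 (adjusted p = 0.000337). Its HEL means, 5.28 untreated and 5.42 treated, lay below the table's median of 6.45, as did the UKE1 means of NR5A1. NR0B2 (SHP), a corepressor without a DNA-binding domain, was not called in either line, with changes of -0.05 and 0.22. The latter was called without UKE1 untreated array 1 (adjusted p = 0.0164).

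Among the steroid and estrogen-related receptors, NR3C2 went opposite ways. This mineralocorticoid receptor is known to bind cortisol as well as aldosterone, and hydrocortisone, which is cortisol, was in UKE1 medium in both conditions. It fell in HEL from 6.68, 6.77 and 6.83 to 6.59, 6.50 and 6.49 and rose in UKE1 from 4.93, 4.88 and 5.01 to 5.38, 5.35 and 5.17. The changes were -0.24 (adjusted p = 0.0168) and 0.36 (adjusted p = 0.000893), with a difference of 0.59 (adjusted p = 0.000842). The HEL call was lost without HEL untreated array 3 or HEL treated array 2 or 3, with adjusted p up to 0.0657.

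ESRRA, which drives mitochondrial genes, fell by 0.42 in HEL (adjusted p = 0.000617), from a mean of 8.61 to 8.19, and changed by -0.08 in UKE1. The difference of 0.34 was just past the threshold (adjusted p = 0.0442) and lost its call under 11 of 19 other settings (adjusted p up to 0.104): median centring, and each fit that left out 1 array other than HEL untreated array 3 or UKE1 untreated array 1. The progesterone receptor PGR fell by 0.34 in UKE1 (adjusted p = 0.00446), from 4.21 to 3.87, both below the table's median. ESR1 and ESR2, the estrogen receptors, ESRRB and ESRRG had changes between -0.14 and 0.14 in the 2 lines and were not called.

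Of the 6 NR2 orphan receptors 1 was called, NR2F6 of the COUP-TF group, with an increase of 0.26 in HEL (adjusted p = 0.0157). That call was lost without HEL untreated array 1 or HEL treated array 3 (adjusted p up to 0.0766). NR2C1 and NR2C2, the testicular receptors TR2 and TR4 that form a repressor complex on globin genes in erythroid cells, had changes of 0.01 and -0.04 in HEL. In UKE1 their changes were 0.01 and -0.17 (adjusted p = 0.915 and 0.0578). The NR2C2 change was called in 5 of 20 other settings, among them without UKE1 untreated array 2 or UKE1 treated array 3 (adjusted p 0.023 at the lowest). NR2E1, NR2E3 and NR2F1 ranged from -0.07 to 0.11 over the 2 lines.

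Without drug, the lines differed in many receptors. Of the 38, 23 were called, against 67.7% of all genes. UKE1 was higher in 9 and lower in 14, where 33.3% of all genes were higher and 34.4% lower. A called difference of at least 0.5 was seen for 17, against 37.3% of all genes. The arrays of the lines did not overlap for 24 receptors, where 69.4% of all genes had no overlap. RXRA was 5.41-fold higher in UKE1 (adjusted p = 4.28e-12), NR5A2 4.30-fold (adjusted p = 1.02e-10) and NR6A1 3.77-fold (adjusted p = 5.91e-12). NR5A1 was 6.65-fold higher in HEL (adjusted p = 5.79e-13), THRB 3.91-fold (adjusted p = 8.7e-11), NR3C2 3.53-fold (adjusted p = 2.77e-11), RARG 3.50-fold (adjusted p = 2.86e-11), PPARD 3.07-fold (adjusted p = 2.69e-10) and VDR 2.10-fold (adjusted p = 1.94e-09). In the lower line, the untreated means of RXRA (5.86), NR5A2 (5.28), NR5A1 (5.86), THRB (4.83), NR3C2 (4.94) and RARG (5.80) lay below the table's median of 6.45. Whether they were above background is not known without detection flags, so these 6 folds may understate the difference.

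Other differences between the untreated lines were smaller. UKE1 was higher in THRA (0.91), PPARG and NR1H3 (0.78 each), NR2F6 (0.35), NR1I3 and ESR2 (0.26 each), all log2 differences past the threshold. HEL was higher in NR2F1 by 0.69, NR1D1 by 0.61, NR0B2 by 0.45, ESRRA by 0.42 and NR2C1 by 0.34, besides the 3 NR4A genes. All group means of PPARG, NR1I3, ESR2, NR0B2 and NR4A3 lay below the table's median. RXRB differed by -0.01, with a 95% interval from -0.15 to 0.14. The call of NR1I3 was lost without HEL untreated array 2 or 3 or UKE1 untreated array 1 or 3 (adjusted p up to 0.143). ESR1, which had several rows, differed by 0.02 and was not called with the row used. With the row of the lowest mean and with the mean of the rows it was called (difference up to 0.54, adjusted p 0.011 at the lowest).

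**Figure D3:**
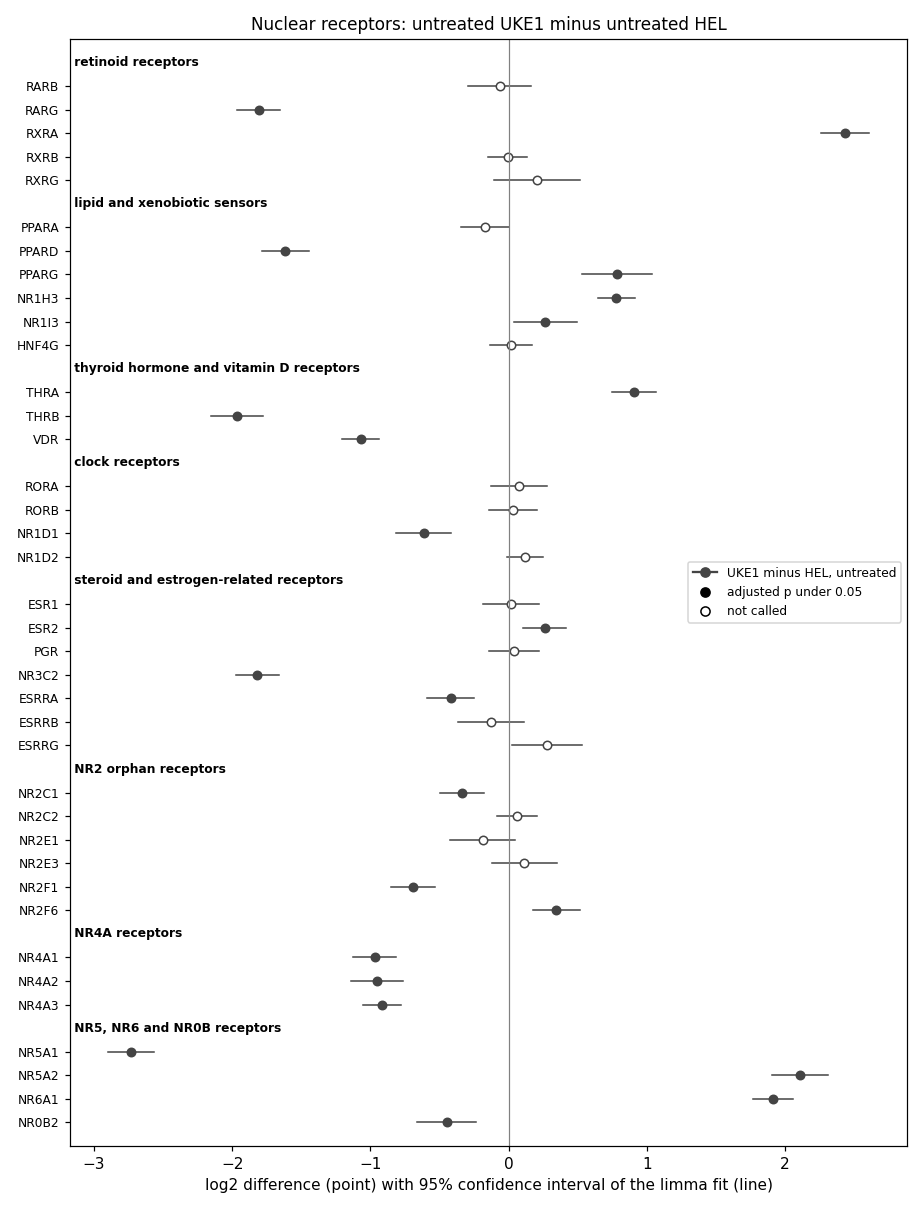
Log2 difference between untreated UKE1 and untreated HEL (x axis) of each receptor (y axis), with 95% confidence intervals of the fit as lines and called receptors filled. NR5A1 lies at -2.73 and RXRA at 2.44, and the 3 NR4A genes lie together at -0.97 to -0.92.

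The comparison of untreated lines shares arrays with the drug comparisons, so the treated levels are given beside it only as values. With ITF2357 RXRA averaged 6.18 in HEL and 7.62 in UKE1, against 5.86 and 8.30 without. PPARD averaged 8.89 and 7.96 with the drug, against 8.10 and 6.48 without it. THRB averaged 7.51 in treated HEL and 4.87 in treated UKE1, against 6.80 and 4.83 in untreated cells. Means of NR5A1 in treated cells were 7.75 in HEL and 5.60 in UKE1, and 8.59 and 5.86 in untreated cells.

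Co-regulators are the proteins through which receptors act. Of 15 coactivators measured, 9 fell and 5 rose in HEL, and 9 fell and 3 rose in UKE1. Their median log2 change was -0.22 in HEL and -0.29 in UKE1, against -0.01 and 0.01 over all genes. The share called was 93.3% in HEL and 80.0% in UKE1, against 42.4% and 44.3% of all genes. Those shares and medians over all genes are the measure for the lists that follow. All genes include those with every group mean below the table's median, and 12028 of the 18417 remain without them. The part of expression level in the shares of the lists was not tested. NSD1, a histone methyltransferase that binds receptors, fell by 0.97 in HEL (adjusted p = 3.17e-07) and by 1.69 in UKE1 (adjusted p = 2.16e-09). The acetyltransferase CREBBP fell by 0.81 and by 1.006. NCOA2 fell by 1.29 in UKE1 and by 0.21 in HEL, and the responses differed by -1.08 (adjusted p = 5.09e-06). NCOA6 fell by 0.45 in HEL and by 0.71 in UKE1. PNRC1 rose by 0.60 and 0.36, and NCOA4, which is also the receptor for ferritin breakdown, by 0.58 and 0.29.

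Of 8 corepressor genes, 5 rose and 1 fell in HEL, and 4 rose and 2 fell in UKE1, so that 75.0% were called in each line (42.4% and 44.3% of all genes). HDAC3, the deacetylase of the NCOR complex, rose from 9.15 ± 0.0844 to 10.31 ± 0.0567 in HEL and from 9.69 ± 0.0908 to 10.80 ± 0.0178 in UKE1 (SD, n = 3). These were increases of 1.16 (adjusted p = 1.33e-08) and 1.11 (adjusted p = 1.51e-08). SIN3A rose by 0.67 and 0.16, and GPS2 by 0.29 and 0.57. LCOR fell by 0.34 in HEL and rose by 0.29 in UKE1, and TBL1XR1 rose by 0.25 in HEL and fell by 0.47 in UKE1. NRIP1 fell by 0.87 in UKE1 and changed by -0.02 in HEL.

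Of 13 genes that transport or convert retinoids, 3 rose and none fell in HEL, while 4 rose and 2 fell in UKE1. These were 23.1% and 46.2% of the list, against 42.4% and 44.3% of all genes. ALDH1A1, which makes retinoic acid, rose by 1.15 in HEL and 0.36 in UKE1. STRA6, the retinol transporter, rose by 0.38 in HEL and fell by 0.89 in UKE1, a difference of -1.27 (adjusted p = 2.4e-06). LRAT, which stores retinol as ester, rose by 0.44 in HEL, though its treated and untreated arrays overlapped. Its HEL means, 5.16 untreated and 5.60 treated, lay below the table's median. DHRS9, a retinol dehydrogenase, fell by 1.803 and CRABP2, a retinoic acid carrier, rose by 0.52 in UKE1. Of 9 retinoic acid target genes, which include STRA6 and CRABP2, 2 rose and 1 fell in HEL and 1 rose and 1 fell in UKE1, or 33.3% and 22.2% called. TGM2 rose by 0.93 and ASB2 fell by 0.60 in HEL.

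Of 12 LXR target genes measured, 7 rose and none fell in HEL, with a median change of 0.36, and 5 rose and 2 fell in UKE1, with a median of 0.05. In each line 58.3% were called, against 42.4% of all genes in HEL (22.6% rose, 19.9% fell) and 44.3% in UKE1. LPCAT3, a phospholipid remodelling enzyme, rose by 1.54 in HEL and 0.9998 in UKE1, and the cholesterol exporter ABCG1 by 0.97 and 1.04. MYLIP, which marks the LDL receptor for degradation, rose by 1.09 and 0.40. ABCA1, another cholesterol exporter, rose by 0.95 in HEL and fell by 0.60 in UKE1, a difference of -1.56 (adjusted p = 2.11e-06). All 4 differences but that of ABCG1 (0.07) were called. NR1H3, the LXR gene measured, was not called in either line.

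Of 13 PPAR target genes, 7 rose and none fell in HEL, and 4 rose and 4 fell in UKE1. These were 53.8% and 61.5% of the list, against 42.4% and 44.3% of all genes. PDK4, which spares glucose, rose by 1.32 in HEL and changed by 0.08 in UKE1. CPT1A, the entry step of fatty acid oxidation, rose by 0.80 in HEL and changed by 0.12 in UKE1. ACAA2 rose by 0.59 in HEL and fell by 0.33 in UKE1, and HADHA rose by 0.29 and 0.24, both enzymes of fatty acid oxidation. In UKE1, VNN1 fell by 1.66 and the fatty acid transporter CD36 by 0.45, and the lipid droplet protein PLIN2 rose by 0.43. SLC25A20 rose by 0.30 and 0.46. The difference between responses was called for VNN1, PDK4, CPT1A, ACAA2, ACADM, CD36 and PLIN2, with a more positive change in UKE1 for PLIN2 alone of these 7.

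Of 10 vitamin D genes, 1 rose and 1 fell in HEL, and 1 rose and 3 fell in UKE1, or 20.0% and 40.0% called against 42.4% and 44.3% of all genes. The 25-hydroxylase CYP2R1 rose in both lines (0.88 and 0.97), and CYP27B1, which makes the active hormone, fell in both (-0.81 and -0.43). THBD (-0.70) and SPP1 (-0.52) also fell in UKE1. CYP24A1, the most sensitive vitamin D target in many cells, changed by -0.12 in HEL and 0.04 in UKE1 and was not called. Of 7 thyroid hormone genes, 1 rose in HEL and 3 in UKE1 (14.3% and 42.9%), and none fell. SLC16A10, a transporter of thyroid hormone, rose in both lines (1.09 and 0.73). KLF9 (0.48) and DIO1 (0.29) rose in UKE1.

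Of 14 clock genes, 7 rose and 4 fell in HEL, and 7 rose and 3 fell in UKE1, or 78.6% and 71.4% called against 42.4% and 44.3% of all genes. BMAL1, a core activator of the clock, rose from 6.27 ± 0.238 to 7.37 ± 0.0402 in HEL and from 6.78 ± 0.105 to 7.69 ± 0.0746 in UKE1 (SD, n = 3). BMAL1 thus rose by 1.102 (adjusted p = 7.56e-07) and 0.91 (adjusted p = 4.12e-06). CLOCK, its partner, fell by 0.43 (adjusted p = 0.00164) and by 0.38 (adjusted p = 0.00413), and PER2 fell by 0.74 and by 0.62. Any part of the NR1D1 change in these values was not tested. NFIL3, a transcriptional repressor, rose by 1.07 in HEL and 1.64 in UKE1, and CRY1 rose by 0.85 and 0.90. PER1 rose by 0.66 and 0.73, and BHLHE41 by 1.07 and 0.24. BHLHE40 fell by 0.91 in HEL and by 0.41 in UKE1.

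**Figure D4:**
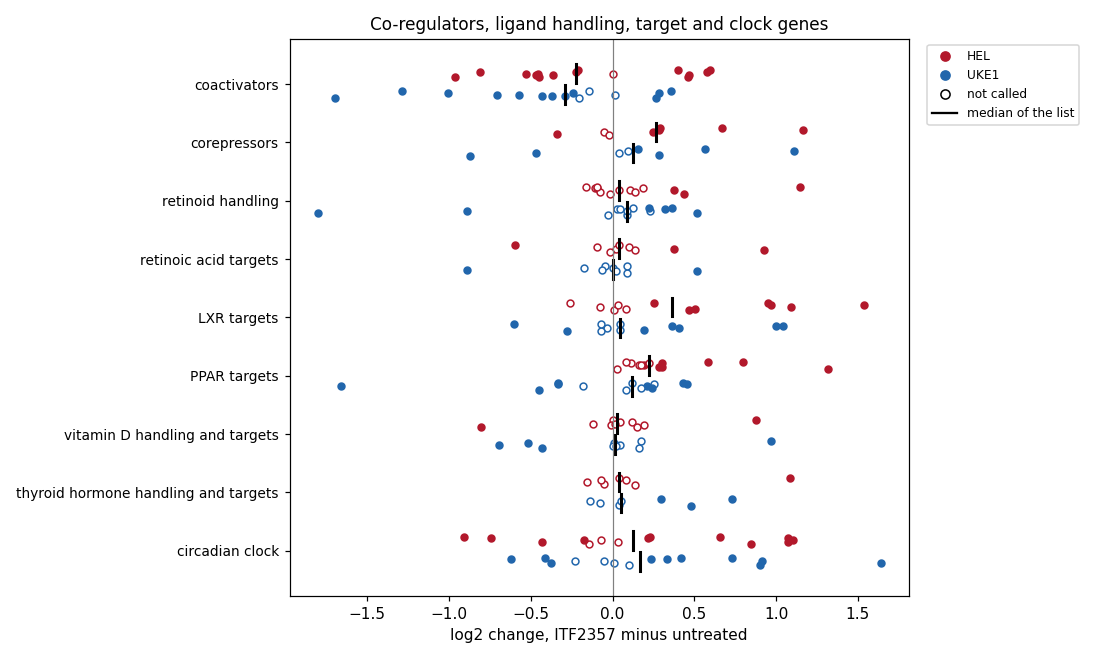
Log2 change with ITF2357 (x axis) of the single genes (points) of 9 lists of co-regulators, ligand handling, target and clock genes (y axis), in HEL (red) and UKE1 (blue), with called genes filled and list medians as black bars. Coactivators have medians of -0.22 and -0.29, and LXR targets of 0.36 in HEL and 0.05 in UKE1.

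Facts of the whole series bear on these values. Over all rows, the correlation was 0.994 to 0.996 within groups, 0.982 to 0.985 between treated and untreated arrays of 1 line, and 0.928 to 0.943 between the lines. Of 10 erythroid and megakaryocyte markers, 6 were measured, and all 6 were lower in untreated UKE1 than in untreated HEL, with a log2 difference of -2.81 for GATA1. Their mean level ranged from 9.69 to 9.85 on untreated HEL arrays, 9.30 to 9.43 on treated HEL, 8.25 to 8.34 on untreated UKE1 and 7.78 to 7.92 on treated UKE1 arrays. Of 7 T and B cell markers measured, 6 were higher in untreated UKE1, among them CD3D, CD3E and CD3G by 4.84, 3.61 and 5.77, with a mean level of 7.39 to 7.49 against 4.91 to 5.04 in untreated HEL. Of 5 haematopoietic markers, 4 were measured, and 3 fell with the drug in each line, with median changes of -0.55 in HEL and -0.68 in UKE1. Their mean level lay between 10.37 and 10.47 on untreated and between 9.78 and 9.83 on treated HEL arrays, and between 10.57 and 10.59 on untreated and between 9.82 and 9.90 on treated UKE1 arrays. MYB fell by 1.41 and by 1.365, and SPI1 by 0.72 and by 0.96. The part of these marker differences in the receptor results was not tested. In bulk RNA, fewer cells expressing a gene and less RNA per cell cannot be told apart.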

How the data were processed

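RNA of the 12 samples was hybridized to Affymetrix Gene 1.0 ST arrays. Expression Console and RMA were the authors' tools, per the submitters' processing notes, without versions. No label gives the base of the deposited values, which were taken as log2 because they span 1.26 to 14.36. How the probes of single receptors behaved was not examined.

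The platform annotation from GEO assigned a single symbol to 19460 of 33297 rows, several to 1754 and none to 12083. Keeping the single-symbol row with the highest mean gave 18417 genes. RefSeq tables of GRCh38.p14 served for neighbours and promoter sequences.

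Group means were fitted over all arrays in limma 3.58.1 under R 4.3.3 (lmFit and eBayes). Tests were two-sided, and p-values were adjusted over the 18417 genes by the Benjamini-Hochberg method, with calls below 0.05. The code was tested on simulated arrays. Values on each array are printed for the 17 receptors called with a log2 change of at least 0.5 in a drug comparison or of at least 1 between untreated lines. Of each list, the up to 4 called genes with the smallest adjusted p in each line are named, and ACADM, CYP24A1, CLOCK, PER2, MYB and SPI1 were added after their values were seen. The members and lists were chosen with earlier results of these data known. Alternatives covered scaling, dim rows, row choice, variance model, arrays fitted, a replicate block and leaving out each array. The number of arrays limits the precision.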

Additional observations from a re-analysis of the deposited data

Results flagged for a closer look

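For 13 receptors the test of the difference between the responses of the lines was past the threshold (limma, adjusted p below 0.05), against 23.9% of all genes. Differences are log2 changes in UKE1 minus those in HEL. The response was more positive in UKE1 for PPARD (0.69), NR3C2 (0.59), NR5A1 (0.59), NR1D2 (0.57), RARG (0.52), VDR (0.47) and ESRRA (0.34). It was more negative in UKE1 for RXRA (-0.99), NR5A2 (-0.87), THRB (-0.67), THRA (-0.63), NR6A1 (-0.53) and NR2F6 (-0.42). The adjusted p ranged from 3.93e-05 for RXRA to 0.0442 for ESRRA. RXRA and NR3C2 were called in opposite directions in the 2 lines. PPARD and NR5A1 changed the same way in both with a different size, and the others were called in 1 line. Both group means lay below the table's median of 6.45 in UKE1 for NR5A1, THRB, NR3C2 and RARG, and in HEL for RXRA and NR5A2. The part of such low levels in these differences was not tested.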

How the results depend on the processing

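Each result was recomputed under 20 other settings: quantile normalization, median centring, a filter on dim rows, 2 other choices of row per gene, a trended and robust variance model, only the arrays of the contrast, the replicate number as a block, and 12 fits that left out 1 array each. The count of called receptors stayed within 1.5 times its value throughout. Leaving out arrays gave 14 to 17 called receptors in HEL, 14 to 16 in UKE1, 12 to 14 for the difference between responses and 22 to 24 between the untreated lines. With the replicate block the counts were 17, 14, 14 and 24. Correlations of the deviations of same-numbered arrays from their group means ran from -0.08 to 0.12, and not every one was above 0.1, so the numbers were not taken as a pairing. Still, arrays correlated best with their own number in 11 of 18 comparisons, where 6 are expected by chance. Between treated and untreated UKE1 this held for every array, which is a hint from the data and not from the design. The 18 comparisons are not independent, since each correlation was counted from both of its arrays. Those same-numbered UKE1 correlations were only 0.03 to 0.04, while arrays with different numbers reached 0.09 in HEL. Of 67 called changes of single receptors, 61 kept their call and none changed sign under any setting that could be run. The other 6 lost their call under some setting: RORA, NR3C2 and NR2F6 in HEL, NR5A1 in UKE1, ESRRA for the difference and NR1I3 between the lines. Of 85 changes not called, 18 were called under some setting. A fit to the arrays of the contrast alone was not run for the difference between responses, which uses all arrays. The filter on dim rows left 22 of the 38 receptors, and the other 16 have no value there. Median centring moved the split of calls over all genes for the difference between responses from 42.2% to 30.6% more positive in UKE1, while the receptors went from 7 and 6 to 6 and 7. What moved these calls was not tested.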
